A study of Populus tomentosa with 9 samples.

Results

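Transcript levels in untreated suspension cells of an overexpression line of the poplar Populus tomentosa were set against those in untreated wild type cells, gene by gene. Of 41624 genes in the deposited expression table, the 23940 with at least 1 FPKM in the higher of the 2 libraries were compared. FPKM counts fragments per kilobase of transcript, scaled to the size of each library, so it is a level per length. Each comparison is the log2 ratio of (FPKM + 1), overexpression over wild type, so a positive log2 difference means a higher level in overexpression cells.

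RNA sequencing covered 9 libraries, 1 for each combination of overexpression, antisense and wild type cell lines with no treatment, 10 mM H2O2 for 3 h or 1 mM ASA for 3 h. H2O2 is a reactive oxygen species, and ASA is an abbreviation that the labels do not spell out. Untreated libraries are recorded at 0 h and none at 3 h, so treatment and elapsed time cannot be told apart between untreated and treated pairs. Cells of every line were collected 5 days after subculture and were grown in the dark at 25 °C with shaking at 140 rpm. There were no replicates, so the untreated difference could not be tested and every count describes these libraries only.

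Each genotype in the untreated comparison was 1 library, and what belongs to the transgene, to the cell line or to the library cannot be told apart. The overexpressed gene, its promoter and any construct in the wild type cells are not named in the labels, so the level of the targeted gene could not be used as a check. Stems of Arabidopsis are named in the extraction protocol, in conflict with the sample labels, which say poplar and suspension cells. No defining marker list exists for dark-grown suspension cells, and genes of green tissue, xylem and seeds were counted instead. Reads per gene, recovered from the FPKM steps, summed to 19629348 in the overexpression library and 19125086 in the wild type library. A count of 3 reads in a transcript of 1 kb equals 0.153 FPKM in the overexpression library and 0.157 FPKM in the wild type library. At least 1 FPKM was reached by 23263 genes in overexpression cells and by 22827 genes in wild type cells. The 20 most abundant genes took 3.73% of reads in overexpression cells and 5.57% in wild type cells.

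Several gene systems that appear in the comparison are well described in plants. When phosphate is short, plant cells raise transcripts of SPX-domain proteins, which sense the phosphate state, together with secreted acid phosphatases, phosphate transporters and enzymes that take phosphate from lipids. Growing cells build ribosomes in the nucleolus with RNA polymerase I, assembly factors, RNA helicases and ribosomal proteins. Auxin induces AUX/IAA and GH3 genes, whose products dampen the auxin response and conjugate the hormone, and cytokinin dehydrogenases break cytokinins down.

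Most genes lay close to each other in the 2 libraries. Within 2-fold were 21321 genes, which is 89.1% of those compared. At least 2-fold higher in overexpression cells were 1477 genes (6.17%), and 1142 genes (4.77%) were at least 2-fold lower. The median log2 difference over all genes compared was 0.11, and the 5th and 95th percentiles were -0.98 and 1.07. Thus 56.4% of the genes beyond 2-fold were on the higher side, but this share was 43.2% after rescaling by the median of gene ratios and 42.7% with the scale of the authors' own comparison. Counting error left 981 higher and 892 lower genes whose exact 95% interval of the read ratio lay wholly beyond 2-fold. An 8-fold difference or more was reached by 24 higher and 27 lower genes.

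Descriptions come only with the genes of the authors' 6 comparison tables, so the described genes are a selected set. These tables set overexpression or antisense cells against wild type cells. That for the untreated pair lists no log2 fold under 1.00 in size. Family members outside the tables have no description, so a list is not a whole gene family, and unchanged members may be missing. Of 2713 described genes compared, 404 (14.9%) were at least 2-fold higher and 529 (19.5%) were at least 2-fold lower, with a median log2 difference of -0.13. The gene groups that follow consist of described genes only, and their counts are read against these shares. Of the lists, 15 narrow ones were written after values had been read, so their counts are no independent sign of a direction. They are RNA polymerase subunits, ribosome assembly, DEAD-box helicases, aminoacyl-tRNA synthetases, AUX/IAA, GH3, thiamine diphosphate enzymes, sucrose synthases, GroES-type alcohol dehydrogenases, glycolysis, phosphoenolpyruvate carboxylases, pectate lyases, universal stress proteins, GDSL lipases and DUF506. The other 61 lists were chosen with earlier results of these data known, so their counts are no independent sign either. Genes with no description are the rest of the 23940 compared and far outnumber the described ones. Of them, 1073 were at least 2-fold higher and 613 at least 2-fold lower, both smaller shares than among described genes. Because 1 of the tables that give descriptions compares these same 2 libraries, this gap in shares was set in advance by the selection.

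**Figure D1:**
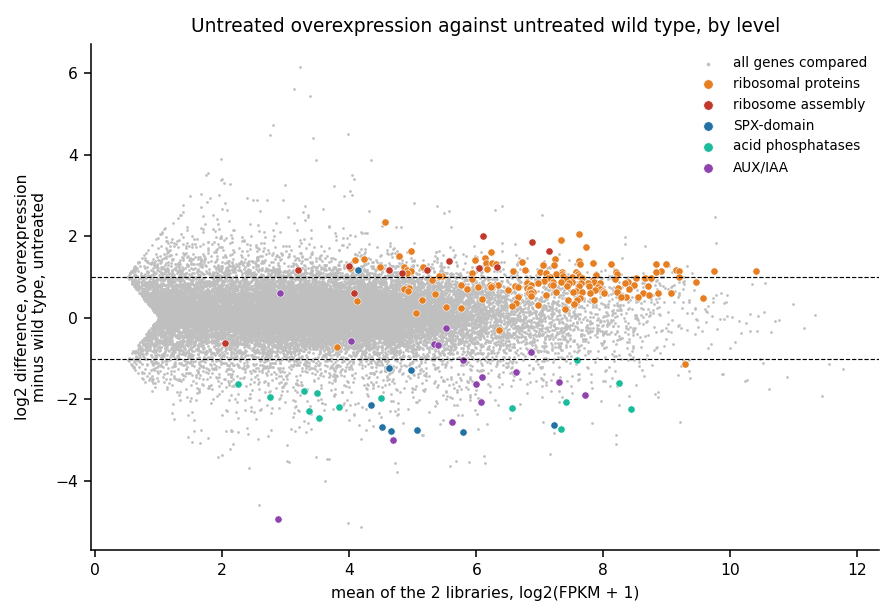
Each grey point is 1 of the 23940 genes compared, with the mean of the 2 libraries on log2(FPKM + 1) on the horizontal axis and the log2 difference, overexpression minus wild type, on the vertical axis; dashed lines mark 2-fold. Of the coloured gene lists, ribosomal protein and ribosome assembly genes lie mostly above 0, and SPX-domain, acid phosphatase and AUX/IAA genes mostly below it.

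The 3 genes with the largest positive differences were nearly silent in wild type cells. POPTR_0011s03140, described as a K-box transcription factor of the MADS family known for roles in flower development, had 77.9 FPKM in overexpression cells and 0.107 FPKM in wild type cells. That is 749 reads against 1 read, a depth-corrected read ratio of 730 with an exact 95% interval of 131 to 28862. The MADS-box gene POPTR_0013s09960 had 60.4 FPKM in overexpression cells, against 0.252 FPKM in wild type cells (246 reads against 1 read). The K-box gene POPTR_0013s09980 had 68.1 FPKM in overexpression cells, against 0.585 FPKM in wild type cells. The log2 differences of these 3 genes were 6.16, 5.62 and 5.45. They were also higher in the untreated antisense cells than in the same wild type library, by 4.33 for POPTR_0011s03140, 2.14 for POPTR_0013s09960 and 1.64 for POPTR_0013s09980 on the log2 scale. The list of MADS-box and K-box genes had 6 members compared, of which 3 were higher and 2 lower. The lower K-box gene with the larger difference was POPTR_0003s11960, at 2.71 FPKM in overexpression cells and 19.1 FPKM in wild type cells.

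Outside the MADS family, the WRKY gene POPTR_0005s08860 had 31.1 FPKM in overexpression cells and 0.423 FPKM in wild type cells, a log2 difference of 4.50. WRKY proteins are plant transcription factors known mainly from defence and stress responses. Its log2 difference between antisense and wild type cells was 0.36, and those of the H2O2 and ASA pairs of overexpression and wild type libraries were 4.42 and 4.48. Of 23 WRKY genes compared it was the only member at least 2-fold higher, and 7 were at least 2-fold lower. POPTR_0003s13840 was the lowest of these, with 3.05 FPKM in overexpression cells and 22.5 FPKM in wild type cells.

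POPTR_0013s08910, which joins a translation initiation factor SUI1 domain to a SWIB domain, had 14.3 FPKM in overexpression cells, against 0.0302 FPKM in wild type cells. This was 484 reads against 1 read, a ratio whose 95% interval ran from 84.2 to 18664. POPTR_0013s03080, a dehydroquinase and shikimate dehydrogenase of the aromatic amino acid pathway, had 41.3 FPKM in overexpression cells and 1.90 FPKM in wild type cells. POPTR_0010s16060, with a stress-responsive alpha-beta barrel, had 77.2 FPKM in overexpression cells and 4.30 FPKM in wild type cells. POPTR_0012s08970, which has an NAD(P)-binding domain, had 54.4 FPKM in overexpression cells and 3.89 FPKM in wild type cells. POPTR_0015s13170 encodes a remorin, a family of plasma membrane proteins, and had 54.2 FPKM in overexpression cells and 4.17 FPKM in wild type cells. POPTR_0002s03060, a WAT1-related transporter, had 11.9 FPKM in overexpression cells and 0.302 FPKM in wild type cells.

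These high genes did not all keep their difference in the treated pairs. The log2 differences of POPTR_0013s08910 were 3.89 untreated, 3.09 in the H2O2 pair and 2.52 in the ASA pair. By contrast, POPTR_0010s16060 had 3.88 untreated, -0.55 in the H2O2 pair and -0.01 in the ASA pair. The remorin POPTR_0015s13170 had 3.42 untreated, -1.27 in the H2O2 pair and -0.92 in the ASA pair.

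The largest negative difference belonged to POPTR_0019s07690, described by a nucleoside phosphorylase domain, with 2.10 FPKM in overexpression cells and 107 FPKM in wild type cells. Its log2 difference was -5.12, and antisense cells differed from the same wild type library by -5.10. POPTR_0005s23980, an AUX/IAA repressor of the auxin response, had 0.332 FPKM in overexpression cells and 39.8 FPKM in wild type cells (10 reads against 1169 reads). POPTR_0019s13100 has a plant domain of unknown function, DUF506, and had 6.26 FPKM in overexpression cells, against 98.1 FPKM in wild type cells. Of 5 DUF506 genes compared, 4 were at least 2-fold lower and 1 was higher. POPTR_0014s13600, with the uncharacterised domain DUF761, had 16.3 FPKM in overexpression cells and 200.4 FPKM in wild type cells. POPTR_0001s26210, a family 17 glycoside hydrolase, the family of plant beta-1,3-glucanases, had 0.486 FPKM in overexpression cells and 18.2 FPKM in wild type cells.

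The subtilase POPTR_0007s10900, a secreted type of serine protease, had 2.80 FPKM in overexpression cells and 40.7 FPKM in wild type cells. POPTR_0011s11150, with an S-locus glycoprotein and lectin domain, had 6.69 FPKM in overexpression cells and 90.0 FPKM in wild type cells. POPTR_0004s19470, described as early nodulin 93, had 14.1 FPKM in overexpression cells and 172 FPKM in wild type cells. Its log2 difference was -3.51 untreated but 2.64 in the H2O2 pair and 1.33 in the ASA pair, whereas the subtilase had -3.45, -3.36 and -3.14 in the same order.

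**Figure D2:**
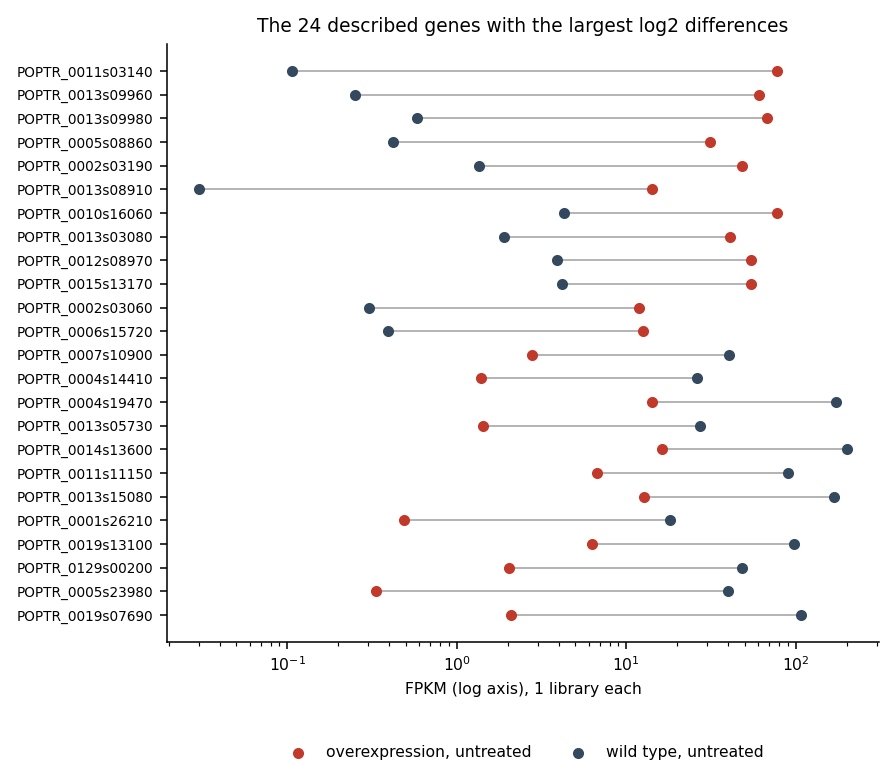
FPKM on a log axis in untreated overexpression cells (red) and untreated wild type cells (dark blue), 1 library each, for the 12 described genes with the largest positive and the 12 with the largest negative log2 differences. POPTR_0011s03140 at the top had 77.9 FPKM in overexpression cells and 0.107 FPKM in wild type cells, and POPTR_0019s07690 at the bottom had 2.10 FPKM in overexpression cells and 107 FPKM in wild type cells.

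Genes with no description reached similar sizes. POPTR_0011s03150, whose identifier follows that of the K-box gene POPTR_0011s03140, had 34.9 FPKM in overexpression cells and 0.355 FPKM in wild type cells. Novel00111, a transcript the authors added to the annotation, had 74.4 FPKM in overexpression cells and 2.31 FPKM in wild type cells. POPTR_0014s19650 had 49 reads in overexpression cells and 0 in wild type cells, which is at least 15.9-fold higher when the floor of 3 reads stands for the empty library. In the other direction, POPTR_0014s04770 had 1.76 FPKM in overexpression cells and 89.2 FPKM in wild type cells. POPTR_0005s21240 had 19.5 FPKM in overexpression cells and 241 FPKM in wild type cells.

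Some genes were on in 1 library and at or under the floor of 3 reads in the other. With at least 10 FPKM in the library where they were on, 8 genes were on in overexpression cells (10.3 to 77.9 FPKM) and 2 in wild type cells (11.8 to 28.1 FPKM). The 2 genes on in wild type cells, POPTR_0003s16850 and POPTR_0003s16860, have adjacent identifiers. They had 1 and 3 reads in overexpression cells, against 126 and 137 reads in wild type cells. The log2 difference of POPTR_0003s16850 was -4.58 untreated, -5.16 in the H2O2 pair and -4.69 in the ASA pair, and the antisense library differed from the same wild type library by 0.09.

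Among abundant transcripts, the gamma thionin POPTR_0019s00770, a small secreted antimicrobial peptide, had the largest gain in FPKM. It had 2034 FPKM in overexpression cells and 365 FPKM in wild type cells. POPTR_0010s16050, whose identifier is next to the stress-responsive barrel gene named above, had 1647 FPKM in overexpression cells and 459 FPKM in wild type cells. The ribosomal proteins POPTR_0006s20280 (L39e) and POPTR_0014s14430 (S30) had 2010 and 1269 FPKM in overexpression cells, against 905 and 572 FPKM in wild type cells. POPTR_0017s11940, a gibberellin-regulated peptide, had 1727 FPKM in overexpression cells and 967 FPKM in wild type cells, a log2 difference of 0.84 that is under 2-fold.

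The largest losses in FPKM were of secreted and wall proteins. The hydrophobic seed protein genes POPTR_0003s11070 and POPTR_0001s00410, of the lipid transfer family, had 1433 and 2272 FPKM in overexpression cells, against 5370 and 5425 FPKM in wild type cells. The chitinase POPTR_0004s18870, which has a chitin-binding domain, had 2044 FPKM in overexpression cells and 4452 FPKM in wild type cells. The thaumatin-like gene POPTR_0001s09570 had 1149 FPKM in overexpression cells and 3149 FPKM in wild type cells. The pistil-specific extensin-like gene POPTR_0004s04450 had 725 FPKM in overexpression cells and 2081 FPKM in wild type cells.

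Genes of the phosphate response were lower in overexpression cells. Of 9 SPX-domain genes, 8 were at least 2-fold lower, and their summed level was 176 FPKM in overexpression cells and 858 FPKM in wild type cells. The median log2 difference of the list was -2.61. POPTR_0006s06880 had 19.9 FPKM in overexpression cells and 145 FPKM in wild type cells, POPTR_0002s14470 had 8.64 and 64.9 FPKM in the same order, and POPTR_0176s00240 had 11.9 and 85.5 FPKM. The exception was POPTR_0017s12260, at 25.3 FPKM in overexpression cells and 10.7 FPKM in wild type cells. Its description adds the EXS domain found in PHO1 proteins, which export phosphate from cells in Arabidopsis. POPTR_0176s00240 and POPTR_0014s06020 carry the same deposited name, so their reads may be shared between near-identical copies.

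All 14 described acid phosphatases compared were at least 2-fold lower. Their sum was 689 FPKM in overexpression cells and 2681 FPKM in wild type cells, and their log2 differences ran from -2.71 to -1.03. The type 5 acid phosphatase POPTR_0012s03910 had 61.8 FPKM in overexpression cells and 411 FPKM in wild type cells. The purple acid phosphatase POPTR_0009s12400, the most abundant of the list in wild type cells, had 158 FPKM in overexpression cells and 744 FPKM in wild type cells. The PHOSPHO2-type phosphatases POPTR_0003s02940 and POPTR_0008s20130 had 99.5 and 91.0 FPKM in overexpression cells, against 860.5 and 551 FPKM in wild type cells.

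Most enzymes and transporters matched to phosphate supply were lower as well. Of 6 glycerophosphodiester phosphodiesterases, which release glycerol phosphate from lipid head groups, 4 were at least 2-fold lower and none was higher. POPTR_0001s33270 had 107 FPKM in overexpression cells and 794 FPKM in wild type cells, and POPTR_0017s09050 had 165 FPKM in overexpression cells and 527 FPKM in wild type cells. Of 4 genes matched as phosphate transporters, 3 were at least 2-fold lower and 1 was higher. The higher one was POPTR_0017s12260, the gene with the EXS domain, at 1.17 on the log2 scale. The phosphate permeases POPTR_0005s24490, POPTR_0005s24500 and POPTR_0001s32590 had log2 differences of -2.04, -2.08 and -1.92. The general transporter POPTR_0001s00630, which the list of major facilitators holds, had 24.4 FPKM in overexpression cells and 165.5 FPKM in wild type cells. All 3 phosphoenolpyruvate carboxylases, which make oxaloacetate and free phosphate, were lower, with POPTR_0011s11190 at 184 FPKM in overexpression cells and 456 FPKM in wild type cells.

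The gap in SPX-domain genes was wider in the treated pairs. The SPX sum was 47.7 FPKM in overexpression H2O2 cells and 496 FPKM in wild type H2O2 cells, and 38.4 FPKM in overexpression ASA cells and 553 FPKM in wild type ASA cells. The list medians were -4.57 in the H2O2 pair and -4.19 in the ASA pair, and 8 of 9 members were at least 2-fold lower in each. The untreated antisense library, set against the same wild type library, had a median of -2.08 for the SPX list and -1.47 for the acid phosphatases. Its medians were -1.48 for phosphate transporters, -1.29 for glycerophosphodiester phosphodiesterases and -1.22 for phosphoenolpyruvate carboxylases. The wild type library is shared by these 2 untreated comparisons, and whether it stands apart from other wild type cultures was not tested.

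Genes for ribosomes and protein synthesis were higher in overexpression cells. The list matched by the words for ribosomal proteins had 155 members compared, of which 56 were at least 2-fold higher and 1 was lower, with a median log2 difference of 0.87. Their levels summed to 41657 FPKM in overexpression cells and 22893 FPKM in wild type cells. The 152 members above the all-gene median of 0.11 ran up to 2.35. The other 3 are no ribosomal proteins by their full descriptions: the Hsp90 chaperones POPTR_0005s26260 and POPTR_0016s00510 and the Lon protease POPTR_0003s08420 were matched through the name of a shared fold, and were picked out after their values were seen. POPTR_0008s10960, of the L7Ae family that also binds guide RNAs, had 402 FPKM in overexpression cells and 95.5 FPKM in wild type cells. The L29 genes POPTR_0008s04870 and POPTR_0008s10710 had 313 and 386.5 FPKM in overexpression cells, against 82.6 and 115 FPKM in wild type cells.

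Transcripts of short genes varied somewhat more, and ribosomal protein genes are short. Genes in the list had a median length of 816 bases, against 1431 bases for all genes compared. The 3997 other genes in the middle range of these lengths had a median log2 difference of 0.13, and all genes had 0.11. These other genes were not limited to described genes or matched by level, and a part of length in the ribosomal protein difference was not tested.

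The apparatus that builds ribosomes was also higher. Of 13 genes for ribosome assembly and nucleolar proteins, 11 were at least 2-fold higher and none was lower by that much, with sums of 1098 FPKM in overexpression cells and 383 FPKM in wild type cells. POPTR_0008s07560, encoding the biogenesis protein Nop53, had 137 FPKM in overexpression cells and 33.6 FPKM in wild type cells. The Gar1-type subunits POPTR_0019s05040 and POPTR_0013s05490, which belong to the complex that turns uridine into pseudouridine in ribosomal RNA, had 222 and 249 FPKM in overexpression cells, against 60.2 and 79.3 FPKM in wild type cells. POPTR_0013s03260, of the NOP5 family found in complexes that methylate ribosomal RNA with guide RNAs, had 76.5 FPKM in overexpression cells and 28.3 FPKM in wild type cells. All 6 DEAD-box helicases with a Q motif, enzymes that unwind RNA, were at least 2-fold higher, with log2 differences of 1.11 to 1.57.

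RNA polymerase subunits and enzymes that charge transfer RNA lay on the same side. Of 7 RNA polymerase subunits, 6 were at least 2-fold higher, among them POPTR_0001s25380 of the Rpb11 type at 81.8 FPKM in overexpression cells and 30.9 FPKM in wild type cells. POPTR_0008s11200, a phage-type polymerase of the kind that serves plastids and mitochondria, had 16.5 FPKM in overexpression cells and 5.23 FPKM in wild type cells. Of 10 aminoacyl-tRNA synthetases, 5 were at least 2-fold higher and none lower, with sums of 694 FPKM in overexpression cells and 359.96 FPKM in wild type cells. Of 27 genes matched as translation factors, 16 were higher and none lower, although this list shares members with the assembly list, such as the Gar1-type genes. With a pseudocount of 5 FPKM in place of 1, 3 of the 7 polymerase subunits and 3 of the 10 synthetases were beyond 2-fold.

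These groups parted in the treated pairs. The ribosomal protein list kept medians of 0.87 in the H2O2 pair and 1.11 in the ASA pair. The ribosome assembly list, with 1.23 untreated, had 0.16 in the H2O2 pair and 0.28 in the ASA pair. RNA polymerase subunits had 1.19 untreated, -0.31 in the H2O2 pair and -0.41 in the ASA pair, and aminoacyl-tRNA synthetases had 0.92, -0.62 and -0.83. In assembly sums, treated overexpression libraries stood below the untreated one (1098 FPKM), and treated wild type libraries stood above the untreated one (383 FPKM). The treated sums were 743 FPKM in overexpression H2O2 cells and 599 FPKM in wild type H2O2 cells. For ASA they were 561 FPKM in overexpression cells and 429.9 FPKM in wild type cells. In untreated antisense cells the assembly sum was 679 FPKM and the median against the untreated wild type library was 0.72. Antisense medians against that library were 0.47 for ribosomal proteins, 0.43 for translation factors and 0.72 for RNA polymerase subunits. They were 0.70 for DEAD-box helicases and 0.69 for aminoacyl-tRNA synthetases, so this direction was not particular to overexpression cells.

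Genes of cell division did not share this direction. Of 30 histone genes, none was at least 2-fold higher and 1 was lower, POPTR_0005s25530 for histone H3, at 60.9 FPKM in overexpression cells and 131 FPKM in wild type cells. The histone median was -0.29 untreated, 1.13 in the H2O2 pair and 0.87 in the ASA pair. Of 39 genes matched as cyclins, tubulins or kinesins, 1 was higher and 6 were lower, with a median of -0.25. The 3 of these lower genes with the largest differences, POPTR_0009s05230, POPTR_0003s12190 and POPTR_0006s06770, are F-box proteins whose domain name holds the word cyclin, and none is a cyclin by its description. The kinesin POPTR_0013s02150 was the higher one, at 9.40 FPKM in overexpression cells and 3.76 FPKM in wild type cells.

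**Figure D3:**
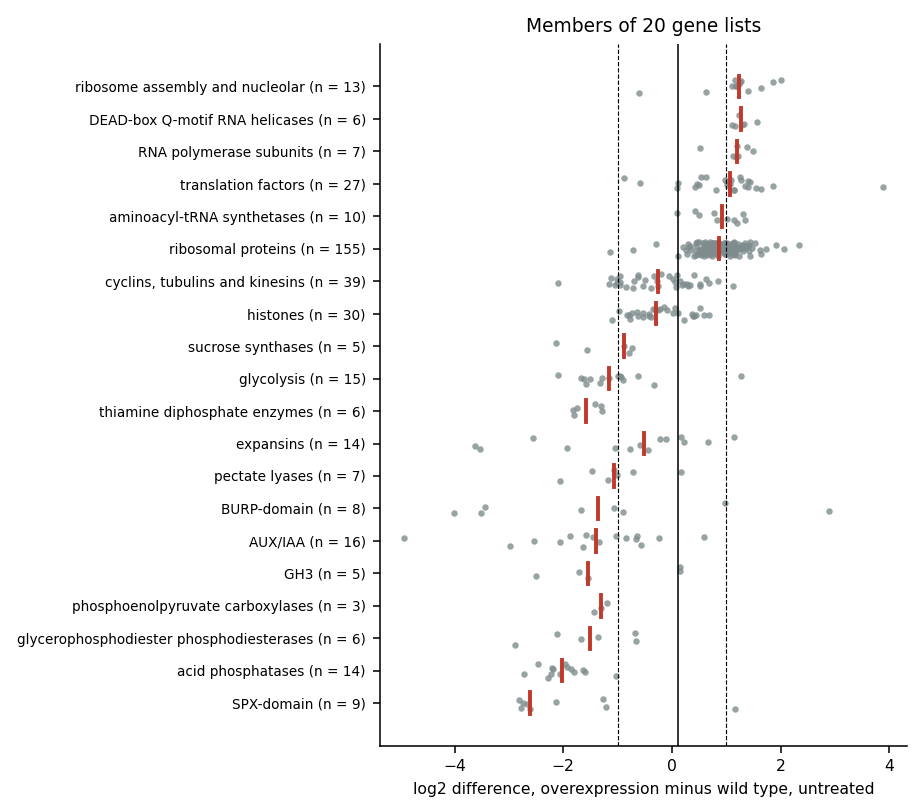
Log2 differences, overexpression minus wild type, untreated, of every compared member of 20 gene lists (grey points, spread vertically at random for visibility), with each list's median as a red bar; the solid line is the median of all genes, 0.11, and dashed lines mark 2-fold. Lists of ribosome assembly, RNA helicases, RNA polymerase and translation factors have medians above 2-fold, and SPX-domain genes, acid phosphatases, phosphodiesterases, carboxylases, GH3, AUX/IAA, BURP-domain, pectate lyase, thiamine diphosphate enzyme and glycolysis lists have medians below it.

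Of 33 genes matched to auxin, 14 were at least 2-fold lower in overexpression cells, 1 was higher and 18 lay within 2-fold, with a median log2 difference of -0.65. The higher one, named after its values were seen, was the auxin efflux carrier POPTR_0015s04570, with a log2 difference of 2.10. The AUX/IAA and GH3 genes within this list were picked out after values had been read. Of 16 AUX/IAA genes, 10 were at least 2-fold lower and none higher, with a median log2 difference of -1.40 and sums of 644 FPKM in overexpression cells and 1824 FPKM in wild type cells. POPTR_0010s08880 had 8.14 FPKM in overexpression cells and 71.3 FPKM in wild type cells. POPTR_0003s05560 had 19.4 FPKM in overexpression cells and 118 FPKM in wild type cells. POPTR_0014s10730, named after its values were seen, was the only member above the all-gene median, at 8.25 FPKM in overexpression cells and 5.10 FPKM in wild type cells.

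Of 5 GH3 genes compared, whose enzymes attach amino acids to hormones such as auxin, 3 were at least 2-fold lower. POPTR_0009s09590 had 151.5 FPKM in overexpression cells and 446 FPKM in wild type cells, and POPTR_0007s10350 had 125 FPKM in overexpression cells and 409.5 FPKM in wild type cells. The medians of both lists lay near 0 in the treated pairs: AUX/IAA had -0.14 in the H2O2 pair and 0.17 in the ASA pair, and GH3 had 0.13 and 0.25. The AUX/IAA sum was 1640 FPKM in overexpression H2O2 cells and 1684 FPKM in wild type H2O2 cells, so the untreated overexpression library was the low one of these 4. Untreated antisense cells, set against the same untreated wild type library, had medians of -1.01 for AUX/IAA and -0.66 for GH3. Their AUX/IAA sum was 958 FPKM.

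All 3 genes matched to cytokinin were higher in overexpression cells. The cytokinin dehydrogenases POPTR_0002s03190 and POPTR_0006s15720, which degrade the hormone, had 48.6 and 12.6 FPKM in overexpression cells, against 1.35 and 0.394 FPKM in wild type cells. The exact 95% interval of their read ratios was 27.6 to 48.1 for POPTR_0002s03190 and 18.1 to 62.3 for POPTR_0006s15720. Untreated antisense cells differed from the same wild type library by 0.13 and -0.07 for these 2 genes. The LOG gene POPTR_0004s22210, whose enzyme releases active cytokinin, had 68.1 FPKM in overexpression cells and 28.0 FPKM in wild type cells, and its sign was opposite in both treated pairs.

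Cell wall genes were mixed, with the largest differences on the lower side. Expansins loosen walls during growth, and of 14 compared 5 were at least 2-fold lower and 1 was higher. POPTR_0018s10730 had 244 FPKM in overexpression cells and 1436 FPKM in wild type cells, and POPTR_0019s08570 had 173 FPKM in overexpression cells and 659 FPKM in wild type cells. POPTR_0013s15080 had 12.7 FPKM in overexpression cells and 167 FPKM in wild type cells, and POPTR_0013s05730 had 1.44 FPKM in overexpression cells and 27.3 FPKM in wild type cells. The log2 differences of POPTR_0013s15080 were -3.62 untreated, -0.51 in the H2O2 pair and 0.45 in the ASA pair, whereas POPTR_0018s10730 had -2.56, -2.15 and -2.07.

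Of 8 BURP-domain genes, a plant-specific family of secreted proteins, 5 were at least 2-fold lower and 1 was higher. POPTR_0129s00200 had 2.05 FPKM in overexpression cells and 48.0 FPKM in wild type cells, and POPTR_0004s14410, which carries the same deposited name and may share its reads, had 1.40 FPKM in overexpression cells and 26.3 FPKM in wild type cells. The higher member, POPTR_0009s11750, had 14.9 FPKM in overexpression cells and 1.16 FPKM in wild type cells. Of 35 pectin enzymes, 12 were lower, 3 were higher and 20 lay within 2-fold. Among them are 7 pectate lyases, which cut pectin and were picked out after values had been read, and 5 of these were lower, with POPTR_0012s09310 at 75.9 FPKM in overexpression cells and 320.2 FPKM in wild type cells. Of 97 glycoside hydrolases, 19 were higher, 18 were lower and 60 lay within 2-fold. Their median of 0.03 was -0.09 after rescaling by the median of gene ratios. Of 23 cellulose synthase and xyloglucan genes, 2 were higher and 2 were lower, and their sums were 1133 FPKM in overexpression cells and 1135 FPKM in wild type cells. Untreated antisense cells, set against the same wild type library, had medians of -0.70 for expansins, -1.18 for BURP-domain genes and -0.71 for pectate lyases. Antisense medians were -0.40 for pectin enzymes, -0.11 for glycoside hydrolases and -0.23 for cellulose synthase and xyloglucan genes.

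Of 30 genes matched to sucrose synthase and fermentation, 13 were at least 2-fold lower in overexpression cells, 3 were higher and 14 lay within 2-fold, with a median log2 difference of -0.84. The groups that follow were picked out after values had been read. All 6 thiamine diphosphate enzymes of the pyruvate decarboxylase type, which open the route to ethanol, were at least 2-fold lower, with sums of 943 FPKM in overexpression cells and 2729 FPKM in wild type cells. POPTR_0011s07630 had 247 FPKM in overexpression cells and 872 FPKM in wild type cells. Of 15 genes matched to glycolysis, 9 were lower and 1 was higher, with sums of 5129 FPKM in overexpression cells and 8243 FPKM in wild type cells. The phosphofructokinase POPTR_0018s06720 had 153 FPKM in overexpression cells and 494 FPKM in wild type cells, and the pyruvate kinase POPTR_0010s23940 had 47.6 FPKM in overexpression cells and 147 FPKM in wild type cells. The member with the largest difference, POPTR_0012s05200, is a MYB-type regulator by most of its description.

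The higher member was the glyceraldehyde 3-phosphate dehydrogenase POPTR_0008s17940, named after its values were seen, at 812 FPKM in overexpression cells and 335 FPKM in wild type cells. Sucrose synthases cleave sucrose for metabolism and wall building, and 2 of 5 were at least 2-fold lower. The most abundant of them in wild type cells, POPTR_0018s07380, had 144 FPKM in overexpression cells and 634 FPKM in wild type cells. Of 13 alcohol dehydrogenases of the GroES type, 5 were lower, 1 was higher and 7 lay within 2-fold. The higher one, POPTR_0001s31470, had 36.3 FPKM in overexpression cells and 9.61 FPKM in wild type cells. The list had a median of -0.81 untreated, 1.12 in the H2O2 pair and 0.69 in the ASA pair. POPTR_0542s00210 had 5.47 FPKM in overexpression cells and 49.7 FPKM in wild type cells, and POPTR_0542s00220 had 8.51 FPKM in overexpression cells and 65.0 FPKM in wild type cells. In the H2O2 pair their log2 differences were 2.88 and 2.84. The glycolysis median was -1.17 untreated, 0.03 in the H2O2 pair and 0.06 in the ASA pair. Untreated antisense cells, set against the same untreated wild type library, had medians of -0.69 for glycolysis and -0.96 for sucrose synthases. They had -0.64 for the thiamine diphosphate enzymes and -0.28 for the alcohol dehydrogenases.

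Defence and stress genes had no common direction. Of 68 genes matched to thaumatins, chitinases and other pathogenesis-related proteins, 8 were higher and 22 were lower, but this list also takes in expansins through a shared domain name. The allergen V5 genes POPTR_0009s08670 and POPTR_0473s00220, of the family of PR-1 proteins, had 54.9 and 12.1 FPKM in overexpression cells, against 394 and 94.6 FPKM in wild type cells. Of 13 lipid transfer and hydrophobic seed protein genes, 3 were higher and 5 lower, with sums of 4187 FPKM in overexpression cells and 11407 FPKM in wild type cells. POPTR_0004s08500 of this list went the other way, at 195 FPKM in overexpression cells and 30.1 FPKM in wild type cells. The peroxidase POPTR_0005s21740, of the secreted plant type, had 607.5 FPKM in overexpression cells and 171 FPKM in wild type cells. Of 22 glutathione S-transferases, 1 was higher and 2 were lower, with a median of -0.09 untreated and -1.43 in the H2O2 pair. Of 16 HSP70 chaperones 1 was higher and none lower, and of 7 universal stress proteins 5 were lower and none higher.

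Regulators and transporters of other families were split. Of 25 NAC genes, 4 were higher and 3 lower, and POPTR_0019s13140 had 18.0 FPKM in overexpression cells and 3.29 FPKM in wild type cells. Of 148 protein kinases compared, 15 were higher and 22 lower. The receptor kinase genes POPTR_0008s18150 and POPTR_0010s06270, with leucine-rich repeats and a lectin fold, had 14.2 and 29.5 FPKM in overexpression cells, against 1.04 and 3.75 FPKM in wild type cells. MATE transporters export small organic molecules, and of 8 compared 3 were higher and 1 lower. The higher genes POPTR_0229s00240 and POPTR_0004s09390 had 22.7 and 18.2 FPKM in overexpression cells, against 2.89 and 2.47 FPKM in wild type cells. Of 31 ABC transporters, 6 were higher and 2 lower. Of 22 major facilitators and sugar transporters, 3 were higher and 9 lower. For metal transporters these counts were 1 and 5 of 19, and for AP2/ERF genes 3 and 7 of 31. Of all described genes, 14.9% were higher and 19.5% lower. The medians of the major facilitators, metal transporters and AP2/ERF genes were -0.50, -0.21 and -0.23, against -0.13 for all described genes. Of 32 cytochrome P450 genes, 5 were higher and 10 lower, with POPTR_0014s03660 at 0.163 FPKM in overexpression cells and 11.4 FPKM in wild type cells.

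Genes of xylem and secondary walls and of seeds showed no common shift. Of 14 genes matched to xylem and secondary walls, 1 was higher and 2 were lower, with sums of 709 FPKM in overexpression cells and 844 FPKM in wild type cells. Of 24 seed and storage genes, 4 were higher and 4 lower, with sums of 2806 FPKM in overexpression cells and 3042 FPKM in wild type cells. The green tissue list had 5 members, of which 2 were at least 2-fold lower and none higher, with a median of -0.29. In the treated pairs none was higher, and 4 were lower in the H2O2 pair and 3 in the ASA pair. The list's chlorophyll-binding protein POPTR_0014s17070 had 4.74 FPKM in overexpression cells and 12.1 FPKM in wild type cells. Its other photosynthetic gene, POPTR_0007s07780 for a photosystem II assembly factor, had 6.15 FPKM in overexpression cells and 30.3 FPKM in wild type cells. In bulk RNA, fewer cells of a kind and less RNA per cell cannot be told apart.

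The H2O2 pair and the ASA pair of overexpression and wild type libraries are separate libraries of the same lines. At least 2-fold higher in overexpression were 4.33% of 23806 genes in the H2O2 pair and 5.46% of 23912 genes in the ASA pair, and at least 2-fold lower were 8.28% in the H2O2 pair and 8.46% in the ASA pair. Of the 1142 genes lower in untreated cells, 462 (40.5%) were also at least 2-fold lower in the H2O2 pair and 472 (41.3%) in the ASA pair. These were 23.4% of the genes lower in the H2O2 pair and 23.3% of those lower in the ASA pair, and 358 genes were lower in all 3 pairs. Of the 1477 genes higher in untreated cells, 213 (14.4%) were also at least 2-fold higher in the H2O2 pair and 294 (19.9%) in the ASA pair. These were 20.7% and 22.5% of the genes higher in those pairs, and 168 genes were higher in all 3. A difference of at least 2-fold in the opposite direction was found for 151 of the 1477 genes in the H2O2 pair and 135 in the ASA pair. Of the 1142 lower genes, 89 in the H2O2 pair and 48 in the ASA pair were opposite by that much.

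**Figure D4:**
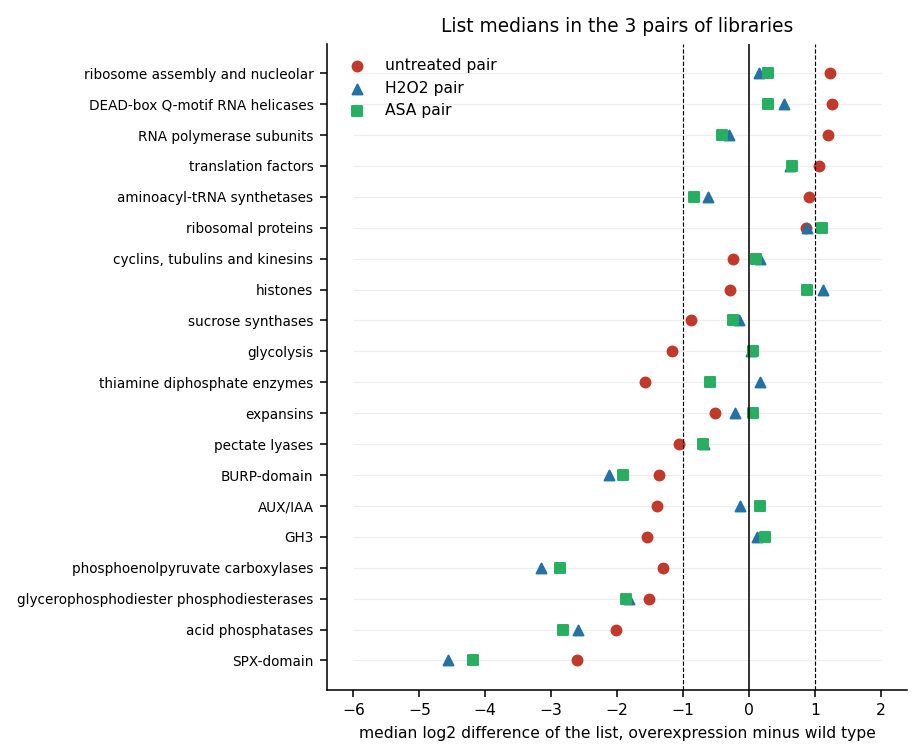
Median log2 difference, overexpression minus wild type, of the same 20 gene lists in the untreated pair (red circles), the H2O2 pair (blue triangles) and the ASA pair (green squares); dashed lines mark 2-fold. SPX-domain, acid phosphatase and carboxylase lists lie below 0 and ribosomal proteins above 0 in all 3 pairs, while glycolysis, AUX/IAA and GH3 are below 2-fold in the untreated pair only.

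Differences also followed the gene identifiers. In the naming of the related Populus trichocarpa, the digits before the letter s give the assembled chromosome or scaffold, and the digits after it give the order along it. No coordinates were used. For 19 prefixes with at least 400 genes each, medians were taken over the 19690 genes that averaged 3 FPKM or more over the 9 libraries, as log2 differences relative to the all-gene median of each pair. Genes of POPTR_0008 had medians of 0.34 untreated, 0.33 in the H2O2 pair and 0.30 in the ASA pair (1137 genes). Genes of POPTR_0013 had 0.35, 0.29 and 0.35 in the same order (719 genes), and genes of POPTR_0003 had -0.40, -0.39 and -0.42 (1052 genes). Genes of POPTR_0014 had -0.12, -0.17 and -0.13 (982 genes). The other 15 prefixes lay between -0.11 and 0.08 untreated, between -0.10 and 0.17 in the H2O2 pair and between -0.15 and 0.16 in the ASA pair. A whole-prefix median near 0 can hold stretches on both sides.

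The share of genes at least 2-fold higher in untreated overexpression cells was 16.3% for POPTR_0008, against 6.17% of all genes. The share at least 2-fold lower was 9.09% for POPTR_0003, against 4.77% of all genes. Within POPTR_0008 the shift covered part of the identifiers. In windows of 60 genes in identifier order, the first 12 windows, from POPTR_0008s00270 to POPTR_0008s13850, had medians of 0.40 to 0.68 untreated, 0.34 to 0.63 in the H2O2 pair and 0.34 to 0.58 in the ASA pair. The next 6 windows of this prefix had medians of -0.30 to 0.08 untreated. In the first 12 windows the antisense library, set against the same untreated wild type library, had medians of -0.07 to 0.07.

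Runs of at least 3 windows with medians on 1 side by 0.1 or more in all 3 pairs numbered 9, in 7 of the 19 prefixes. The first 7 windows of POPTR_0014, up to POPTR_0014s09120, had medians of -0.46 to -0.26 untreated, and windows 9 to 11 had 0.15 to 0.35. Windows 7 to 11 of POPTR_0011, from POPTR_0011s10800, had -0.43 to -0.11 untreated, and windows 1 to 6 had -0.02 to 0.07. Windows 2 to 6 of POPTR_0018 had -0.37 to -0.13 untreated, -0.31 to -0.13 in the H2O2 pair and -0.46 to -0.19 in the ASA pair. Its windows 8 to 11, from POPTR_0018s09440, had 0.20 to 0.25 untreated, 0.25 to 0.34 in the H2O2 pair and 0.25 to 0.31 in the ASA pair. Windows 18 to 20 of POPTR_0005 had -0.26 to -0.13 untreated. All 17 windows of POPTR_0003 were negative, at -0.56 to -0.15 untreated, and all 11 windows of POPTR_0013 were positive, at 0.17 to 0.43. For POPTR_0013 the antisense library also differed from the same wild type library, by 0.22 to 0.36, and the median of overexpression minus antisense was 0.08. In windows 5 to 7 of POPTR_0014 the antisense library had medians of -0.49 to -0.27 against the same wild type library, and in windows 1 to 4 it had -0.13 to 0.25. For POPTR_0003 and POPTR_0008 the medians of overexpression minus antisense were -0.33 and 0.37. The bounds of these runs were set after the values were seen, no DNA was measured in the files used, and the cause of the runs was not tested.

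Several genes and groups named above lie in such runs. The L7Ae and L29 genes of POPTR_0008, with log2 differences of 2.06 for POPTR_0008s10960, 1.91 for POPTR_0008s04870 and 1.74 for POPTR_0008s10710, fall in its first 12 windows. Leaving out POPTR_0003, POPTR_0008, POPTR_0013 and POPTR_0014, the 4 prefixes farthest from 0 as a whole untreated, left 19230 genes, of which 1047 (5.44%) were at least 2-fold higher and 879 (4.57%) at least 2-fold lower. Without these prefixes the ribosomal protein list had 28 of 111 members at least 2-fold higher and a median of 0.81, and the ribosome assembly list had 5 of 7 and 1.18. The translation factor list had 4 of 12 members higher and a median of 0.65, against 16 of 27 and 1.07 with them. On the lower side, expansins had 3 of 10, WRKY genes 4 of 15, cytochrome P450 genes 4 of 23 and pathogenesis-related genes 13 of 51 members at least 2-fold lower without these prefixes. The runs in POPTR_0005, POPTR_0011 and POPTR_0018 remain among the genes left, so these counts are not free of such runs.

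**Figure D5:**
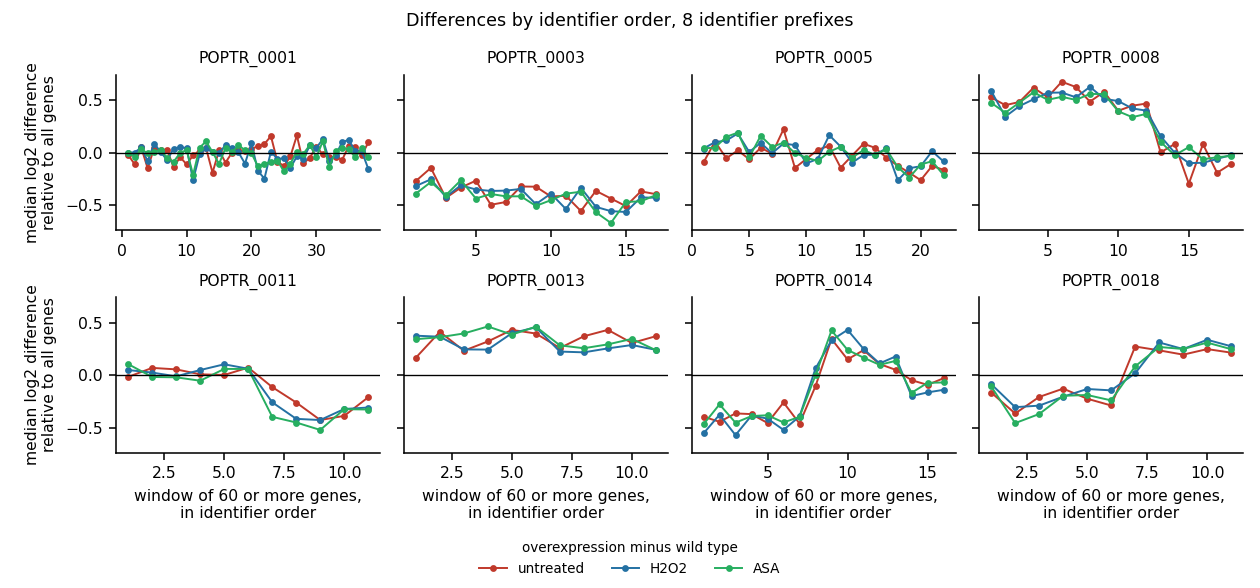
Median log2 difference, overexpression minus wild type, relative to all genes, in windows of 60 or more genes in identifier order for 8 identifier prefixes, in the untreated (red), H2O2 (blue) and ASA (green) pairs. POPTR_0001 has no run of 3 windows on 1 side by 0.1 or more in all 3 pairs. Its single windows reach down to -0.26 in the H2O2 pair. POPTR_0003 lies below and POPTR_0013 above 0 in every window, and POPTR_0008, POPTR_0011, POPTR_0014 and POPTR_0018 change level along the identifiers at nearly the same windows in all 3 pairs.

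The authors' deposited table for this comparison lists 856 genes, 303 with a higher and 553 with a lower level in overexpression cells. Its largest q-value is 0.00495 and its smallest log2 fold in size is 1.00. Every gene in the authors' deposited table had the same sign here, and 779 of the 856 were beyond 2-fold by the FPKM ratio. Of the genes beyond 2-fold here, 20.5% of the higher and 41.7% of the lower ones are in the authors' deposited table. The log2 folds of the authors' deposited table were lower than the FPKM ratios by a median of 0.13. With single libraries, those q-values rest on no replicate spread.

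Level and length set how far the counts reach. At a mean of 300 FPKM or more, 8.62% of 325 genes were at least 2-fold higher and 14.5% at least 2-fold lower. At a mean under 3 FPKM these shares were 7.61% and 4.70% of 4321 genes. In the shortest 10% of genes 10.6% were higher and 6.89% lower, and in the longest 10% 4.26% were higher and 2.05% lower.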

How the data were processed

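Samples were grouped by their titles into 9 conditions of 1 library each. The tools named, per the submitters' processing notes, were HTSeq 0.6.1, TopHat, TopHat2 2.0.12 and Bowtie2 2.2.3. For the genome build and the strand setting of counting, the value is not given in the sources used here. FPKM per gene for the 9 libraries was deposited by the authors. The authors also deposited 6 comparison tables with a normalised signal per library, log2 fold changes, p-values and q-values, and descriptions; no source used here gives their test or scaling, and only log2 folds, q-values and descriptions were used.

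Differences are log2((FPKM + 1)/(FPKM + 1)) of the deposited FPKM, for genes whose higher library had at least 1 FPKM. This scale understates differences of low genes. FPKM steps gave whole reads for 31612 genes, 100% of those with reads in at least 2 libraries (relative tolerance 5e-09); 1546 genes with reads in 1 library only fix no ratio. Read ratios have exact 95% intervals. Intervals and the floor of 3 reads cover counting error only. Near-identical copies and overlapping genes could share reads.

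Lists are 61 sets of word patterns on the descriptions plus the 15 narrow ones named in the results, written after descriptions and values had been read. Members and lists were chosen with earlier results of these data known. Other flavonoid enzymes and terpene synthases matched no gene. Genes were named by rule: the 12 described and 3 undescribed genes with the largest differences each way, the 5 described genes each way with the largest difference in FPKM, up to 4 members of each list with the largest differences, and genes on in 1 library only; exceptions were chosen after their values were seen. Alternatives were other pseudocounts, filters and scales; the authors' scale and the removal of 4 identifier prefixes were chosen after seeing the data. The calculation was tested on simulated data. Python 3.11.15, NumPy 2.4.6, pandas 2.3.3, SciPy 1.17.1 and matplotlib 3.10.9 were used.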

Additional observations from a re-analysis of the deposited data

Results flagged for a closer look

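For 19 genes named by the rule, the log2 difference between untreated overexpression and wild type cells was beyond 2-fold, and both treated pairs were beyond 2-fold in the opposite direction. With 1 library per condition the difference between untreated and treated pairs was not tested. Of these genes, 14 were higher untreated. They include POPTR_0004s20500, a ubiquitin gene fused to ribosomal protein L40e (2.35 untreated, -4.10 in the H2O2 pair, -4.61 in the ASA pair), and the ABC transporters Novel00224 (2.24), POPTR_0014s10880 (2.22) and POPTR_0228s00200 (2.01). The NAC genes POPTR_0019s13140 and POPTR_0001s22630 had 2.15 and 1.44, the glutamine synthetase POPTR_0799s00200 had 1.96 and the B-box zinc finger POPTR_0020s00320 had 1.57. The GDSL lipases POPTR_0017s02500 and POPTR_1677s00200 had 1.47 and 1.29, with -4.79 and -3.66 in the H2O2 pair. The DnaJ co-chaperone POPTR_0012s03590 had 1.45, the cytokinin-activating LOG gene POPTR_0004s22210 had 1.25, the glutathione S-transferase POPTR_0010s07100 had 1.24 and the lysyl-tRNA synthetase POPTR_0018s09760 had 1.19.

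The other 5 were lower untreated and higher in both treated pairs: the DnaJ co-chaperone POPTR_0006s00340 (-1.80), the alcohol dehydrogenases POPTR_0005s06160 (-2.26), POPTR_0542s00220 (-2.79) and POPTR_0542s00210 (-2.97), and the early nodulin gene POPTR_0004s19470 (-3.51). POPTR_0005s06160 and POPTR_0542s00220 carry the same deposited name and may share reads. In the H2O2 pair these alcohol dehydrogenases had 2.15, 2.84 and 2.88 in the order given.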

How the results depend on the processing

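No paired analysis was possible because the untreated comparison has 1 library a side and the labels give no replicate numbers; no replicate could be left out. A fit of the lines over all 3 pairs with treatment as a term asks about an average over treatments and was not run. The 1477 higher genes became 2334 with a pseudocount of 0.1 FPKM, 480 with a pseudocount of 5 FPKM and 981 where the read-ratio interval had to lie wholly beyond 2-fold. The 1142 lower genes became 586 with a pseudocount of 5 FPKM. Genes beyond 2-fold the same way in all 3 pairs, 168 higher and 358 lower, numbered 255 with a pseudocount of 5 FPKM. The median log2 difference over all genes compared, 0.11, became 0.12 with a pseudocount of 0.1 FPKM, 0.072 with a pseudocount of 5 FPKM, 0.078 with no filter, 0.10 with at least 5 FPKM, 0.064 after upper-quartile rescaling, 0.000483 after rescaling by the median of gene ratios and -0.00439 with the authors' scale. Higher and lower genes then numbered 1032 and 1358 with the median of gene ratios and 1021 and 1369 with the authors' scale. With a pseudocount of 5 FPKM, 45.0% of genes beyond 2-fold were higher. No list median or named gene changed sign after being beyond 2-fold. Of 255 genes named for lists or size that were beyond 2-fold, 228 stayed beyond it with a pseudocount of 5 FPKM and 249 with each of the median-ratio and authors' scales. Of 21 list medians beyond 2-fold, 18 stayed so with a pseudocount of 5 FPKM, 20 with each of the median-ratio and authors' scales, 20 with at least 5 FPKM or with no filter, 21 after upper-quartile rescaling or with a pseudocount of 0.1 FPKM, and 18 of the 20 left without the 4 prefixes. With no filter the GH3 median was -0.77 over 6 genes. The higher kinases became 8 and the higher GDSL lipases 2 with a pseudocount of 5 FPKM, the lower peroxidases and aquaporins 5 and 5 with each rescaling, and the MADS list kept 3 members, 1 of them higher, without the 4 prefixes. Depth limits genes near the floor of 3 reads.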
